A study of Mus musculus with 6 samples.

Results

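The genes described here are the WNT ligands, their receptors, inhibitors and intracellular effectors, and a set of stem cell and WNT target genes, in spheroids of the mouse colorectal carcinoma line CMT93. Members were defined by gene symbol: symbols of the Wnt, Fzd, Dkk, Sfrp and Dvl families, and 26 symbols named singly. Earlier results of these data were known when they were chosen. This gave 53 of the 23399 rows of the count table, of which 41 had enough counts to be tested. Of the genes named singly, 23 had a row, and Ascl2, Nkd2 and Sp5 were not analysed here. The groups were 3 samples with 200 µM palmitate and 3 samples with vehicle. Palmitate is a saturated fatty acid and was given as sodium palmitate dissolved in ethanol and bound to bovine serum albumin, while vehicle was ethanol with albumin at the same volume. All samples were wild-type CMT93, 1 established line, kept for 1 week as a monolayer and for 5 days as spheroids over soft agar with a little Matrigel, in medium with fetal bovine serum, before polyadenylated RNA was sequenced. The comparison asks which of these transcripts differ between spheroids grown with and without the fatty acid.

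WNT ligands are secreted proteins that carry a fatty acyl chain, attached by the enzyme PORCN, and are carried to the cell surface by WLS. They bind Frizzled receptors together with the co-receptors LRP5 and LRP6, and Dishevelled proteins relay the signal. Without a ligand, a complex of AXIN, APC and kinases marks beta-catenin for destruction, and with a ligand beta-catenin accumulates and activates genes through TCF and LEF factors in the nucleus. Among these genes are inhibitors of the pathway itself, such as Axin2, Nkd1, Notum, Rnf43 and Znrf3. In the intestine the pathway maintains crypt stem cells, and loss of APC is a common early step in colorectal cancer.

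The libraries held 22.5, 22.7 and 22.9 M counts with palmitate, against 18.9, 21.9 and 21.6 M with vehicle, so the shallowest palmitate library held more counts than the deepest vehicle library. Levels are given as CPM (counts normalised to library size) with TMM scaling, and where genes are compared with each other as CPM per kilobase of merged exons. The epithelial keratin genes Krt8, Krt18 and Krt19 and the adhesion gene Epcam were abundant, as in an epithelial line, but Krt20 had 0.237 CPM with palmitate and 0.146 CPM with vehicle, and the colon factor gene Cdx2 had 2.46 and 1.72 CPM. The summed epithelial markers (9 of 10 listed genes) were 6798 to 6895 CPM with palmitate and 7413 to 7488 CPM with vehicle. Markers of other cells were low: 4 of 8 fibroblast genes summed to 0.976 to 1.10 CPM with palmitate and 1.34 to 2.05 CPM with vehicle, 4 of 5 endothelial genes to 2.00 to 2.55 and 3.23 to 3.55 CPM, and 5 of 7 leukocyte genes to 9.72 to 10.9 and 7.42 to 9.16 CPM, most of it Cd68. None of the listed markers with a row was at 0 in all libraries. In bulk RNA, fewer cells of a type and less message per cell cannot be told apart. The labels number the samples but do not say whether they were separate cultures. Each p-value thus sets the group difference against the spread of these libraries alone, and that spread may be technical. The part of library depth and of the marker differences in the results was not tested.

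With palmitate, transcripts of several feedback inhibitors and of the TCF factor gene Tcf7 were higher, among them Axin2, Nkd1, Notum and, by small amounts, Rnf43 and Znrf3. The secreted inhibitor gene Dkk2 and the ligand gene Wnt5a were also higher. The ligand gene Wnt4, the inhibitor gene Apcdd1 and the stem cell genes Lrig1 and Prom1 were lower, as was the scarce factor gene Lef1. Of 19 tested further known targets outside the members, 9 were called higher and 7 lower, beside 27.4% and 25.4% of all tested genes. The stem cell marker gene Lgr5 was slightly higher. The message for beta-catenin itself, Ctnnb1, was at nearly the same level in both groups. Of the 41 tested members, 19 were called higher and 12 lower, and 10 were not called. A call is an adjusted p under 0.05 in the two-sided quasi-likelihood test of edgeR, with Benjamini-Hochberg adjustment over 14987 genes. In all tested genes the background was 27.4% higher and 25.4% lower, 52.8% in all, so a large share of all genes was called in this comparison. The palmitate and vehicle libraries did not overlap in 30 of the 41, against 57.8% of all tested genes. The median log2 fold change of the tested members was 0.05, against 0.00068 over all tested genes, and the called members differed by a median of 1.22-fold, against 1.19-fold over all called genes. Both groups passed the count filter for 38 members, of which 18 were higher and 10 lower. The other 3, Lef1, Sfrp5 and Sfrp4, passed it through the group in which they were high. DESeq2 called 15 members higher and 10 lower, where it called 18.3% and 15.1% of its genes, 33.4% in all. In the authors' deposited table, 15 members were higher and 10 lower at a q-value under 0.05, where 20.6% and 16.8% of the genes tested here were, 37.3% in all. These 25 members were all called with edgeR, and the others called with edgeR were Apc, Dvl1, Tcf7l1, Fzd7, Sfrp4 and Myc.

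Against a minimum change of 1.2-fold, which edgeR's glmTreat tests directly, 7 members remained called higher (Wnt5a, Dkk2, Notum, Tcf7, Axin2, Fzd3 and Nkd1) and 6 lower (Lef1, Sfrp5, Wnt4, Apcdd1, Lrig1 and Prom1). The background of that test was 6.46% higher and 8.72% lower over all tested genes, 15.2% in all. At least 2-fold were 2 members higher (Wnt5a and Dkk2) and 2 lower (Lef1 and Sfrp5), where 1.69% and 2.82% of all tested genes were called and changed that much, 4.51% in all. Of these 4 members, Dkk2 is well measured and Wnt5a, Lef1 and Sfrp5 are scarce. Lef1 and Sfrp5 passed the count filter only through vehicle, where they were high. Their falls are therefore not comparable with that background, and no other member was called at least 2-fold lower.

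**Figure D1:**
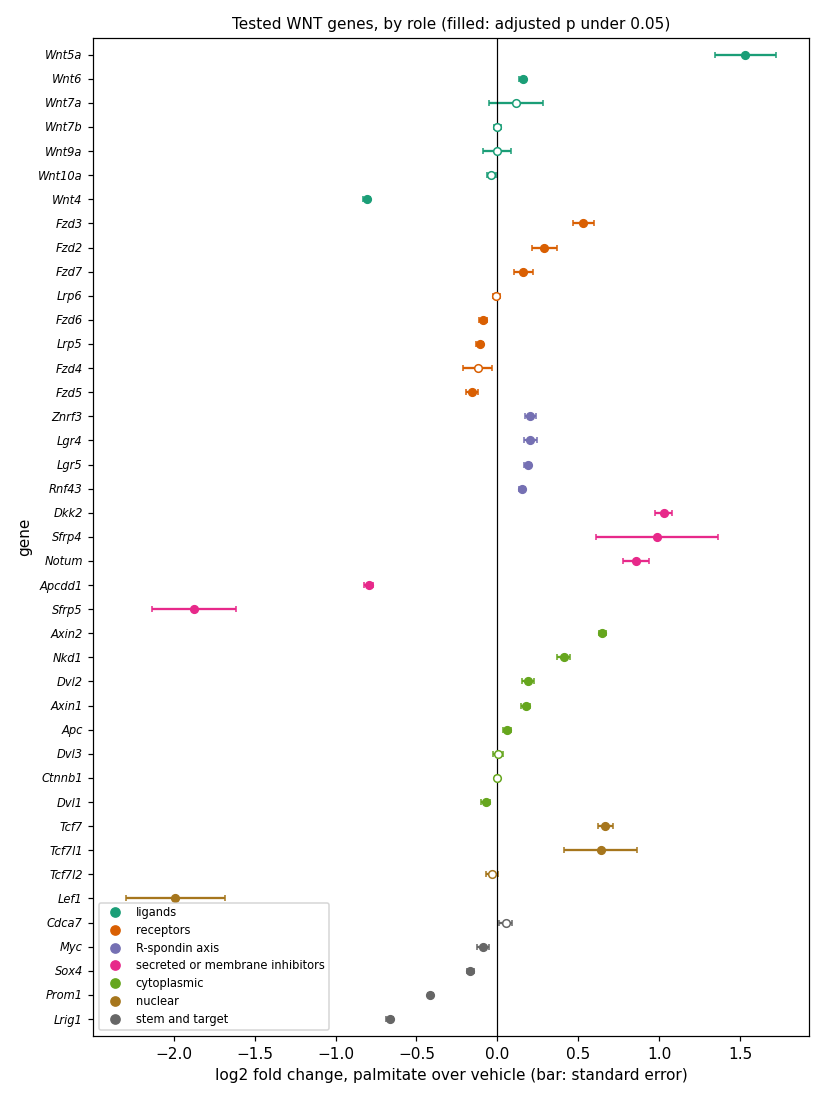
Log2 fold change of palmitate over vehicle (x axis) for each of the 41 tested members (y axis), coloured by role, with the standard error as a bar and filled points for an adjusted p under 0.05. All 4 genes of the R-spondin axis lie between 0.15 and 0.20, whereas the inhibitors spread from -1.87 for Sfrp5 to 1.03 for Dkk2.

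The promoter windows of genes that changed in either direction are shown because TCF and LEF factors bind short words of DNA, and Axin2 is a known target of theirs. The windows run from 250 bases before to 50 bases after a start site and come from RefSeq on build GRCm38.p6, an earlier build than the GRCm39 of the counts. Axin2 and Dkk2 are examples of members that rose, Wnt4 and Lrig1 of members that fell, chosen after their values were seen. Among the called members whose windows were searched, only Fzd7, which rose slightly, held a word. Each is written 5′ to 3′ on the strand of the gene, and capitals mark a word found.
Axin2, chr11:108920099-108920398, plus strand: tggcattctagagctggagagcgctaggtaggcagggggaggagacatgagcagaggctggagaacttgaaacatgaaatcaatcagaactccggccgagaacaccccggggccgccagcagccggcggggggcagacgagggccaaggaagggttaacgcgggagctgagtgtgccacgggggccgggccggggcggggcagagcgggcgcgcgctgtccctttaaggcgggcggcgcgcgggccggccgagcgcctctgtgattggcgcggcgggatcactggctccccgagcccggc
Dkk2, chr3:132085042-132085341, plus strand: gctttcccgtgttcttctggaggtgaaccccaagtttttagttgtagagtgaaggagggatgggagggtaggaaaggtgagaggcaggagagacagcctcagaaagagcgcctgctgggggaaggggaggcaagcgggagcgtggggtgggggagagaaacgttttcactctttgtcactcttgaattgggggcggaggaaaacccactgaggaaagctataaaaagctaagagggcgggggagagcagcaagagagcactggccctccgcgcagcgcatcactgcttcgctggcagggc
Wnt4, chr4:137277385-137277684, plus strand: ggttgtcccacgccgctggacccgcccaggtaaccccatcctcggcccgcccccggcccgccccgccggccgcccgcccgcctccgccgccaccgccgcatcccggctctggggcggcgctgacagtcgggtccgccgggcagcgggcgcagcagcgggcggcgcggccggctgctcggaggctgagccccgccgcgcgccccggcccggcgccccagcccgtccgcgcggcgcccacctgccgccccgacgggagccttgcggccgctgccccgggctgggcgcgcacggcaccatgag
Lrig1, chr6:94700096-94700395, minus strand: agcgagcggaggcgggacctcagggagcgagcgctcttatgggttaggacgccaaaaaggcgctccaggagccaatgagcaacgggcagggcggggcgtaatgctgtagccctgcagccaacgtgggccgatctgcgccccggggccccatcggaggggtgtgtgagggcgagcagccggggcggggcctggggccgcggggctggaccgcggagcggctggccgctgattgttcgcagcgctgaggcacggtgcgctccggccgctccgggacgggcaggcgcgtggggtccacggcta
Fzd7, chr1:59481897-59482196, plus strand: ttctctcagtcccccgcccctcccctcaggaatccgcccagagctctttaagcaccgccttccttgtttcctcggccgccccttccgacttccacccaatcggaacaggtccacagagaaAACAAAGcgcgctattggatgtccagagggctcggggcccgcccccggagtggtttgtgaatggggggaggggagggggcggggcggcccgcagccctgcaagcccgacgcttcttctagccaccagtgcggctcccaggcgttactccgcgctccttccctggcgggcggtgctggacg

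The words searched on both strands were CTTTGAA and CTTTGAT, which are forms of the core bound by TCF and LEF factors, and a weaker form, CTTTGTT. They share their first 5 letters, so 1 position holds at most 1 of them. The word in Fzd7 is CTTTGTT read on the minus strand, and it lies 130 bases before the start. Windows of 35 member genes were searched, 46 windows in all, and 5 of these windows held a word, against 13.9% of 32851 windows of all genes. Several called members, among them Wnt5a, Lgr5, Notum, Apc and Apcdd1, were not among those 35 genes. Member windows on 1 chromosome were left out of the search on purpose, while the windows of all genes had no such limit. By word, CTTTGAA stood in 0 member windows and in 5.14% of all windows, CTTTGAT in 2 and 3.73%, and CTTTGTT in 3 and 5.85%. The other 4 windows with a word belong to Wnt5b, Wnt11, Wnt3 and Tcf7l2, which were not tested or not called. The 4 windows printed without a word differ in base content: Wnt4 has 84.3% G or C and 51 CpG pairs, Lrig1 73% and 35, Axin2 70% and 31, and Dkk2 57.7% and 11. A match is a description of letters in this short window and not a binding site.

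Among the ligands, 16 genes had a row and 7 were tested. Wnt4, a ligand known mainly for kidney and ovary development, fell. It had 169.8, 172 and 173 CPM in palmitate libraries, against 304, 306 and 290.3 CPM in vehicle libraries (log2 fold change -0.81, SE 0.0208, adjusted p = 5.69e-52). The groups lay far apart and the palmitate libraries were within 3 CPM of one another. Wnt6 rose slightly, with 217, 215 and 219 CPM with palmitate and 199, 192 and 194 CPM with vehicle (log2 fold change 0.15, SE 0.0209, adjusted p = 7.41e-10), also without overlap. Wnt7b, the ligand with the highest mean CPM over all 6 libraries although Wnt4 was higher in each vehicle library, had 235, 239.6 and 244 CPM with palmitate and 247, 235 and 238 CPM with vehicle, and the groups overlapped (log2 fold change -0.00024, SE 0.0205, adjusted p = 0.994). Wnt7b shares 324 exon bases with its antisense neighbour AU022754, and whether counting used strand is not stated, so its reads may not be told apart from those of AU022754. Wnt10a had 111 ± 2.44 CPM with palmitate and 114 ± 3.87 CPM with vehicle (SD, n = 3 each) and was not called (adjusted p = 0.242).

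Wnt5a, a ligand that mostly signals without beta-catenin, rose at a low level. Its counts were 83, 72 and 67 with palmitate and 19, 33 and 19 with vehicle, or 3.71, 3.19 and 2.95 CPM against 1.00, 1.5 and 0.877 CPM (log2 fold change 1.53, SE 0.190, adjusted p = 4.53e-11). Every palmitate library was above every vehicle library, but relative counting error is larger at such counts than for Wnt4. Wnt9a (8.58 CPM with palmitate, 8.61 CPM with vehicle) and Wnt7a (2.47 and 2.28 CPM) were not called. The 9 untested ligands, Wnt5b, Wnt2, Wnt11, Wnt1, Wnt16, Wnt10b, Wnt3, Wnt2b and Wnt8b, were each under 0.5 CPM on average, from 0 CPM with palmitate and 0.0327 CPM with vehicle in Wnt8b up to 0.443 and 0.306 CPM in Wnt5b.

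Per kilobase, the order of the main ligands differed between the groups. With palmitate Wnt6 stood first at 99.0 CPM per kilobase, followed by Wnt7b (48.9), Wnt10a (45.1) and Wnt4 (40.8). With vehicle the order was Wnt6 (88.9), Wnt4 (71.5), Wnt7b (48.9) and Wnt10a (46.3), and the vehicle libraries of Wnt7b and Wnt10a overlapped. By CPM, Wnt7b stood above Wnt6 in every library. The first place of Wnt6 thus rests on the merged exon length, 2192 bases for Wnt6 and 4898 for Wnt7b. This order and the shares that follow are therefore uncertain. Wnt4 held 17.2% ± 0.117 of the summed ligand level per kilobase with palmitate and 27.6% ± 0.622 with vehicle (SD, n = 3 each), and Wnt6 held 41.6% ± 0.297 and 34.3% ± 0.325. The sum over all 16 ligands was 236.0, 236.8 and 241 CPM per kilobase with palmitate, against 265, 258 and 255 with vehicle. The palmitate libraries were thus lower in the sum, as they were in Wnt4.

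**Figure D2:**
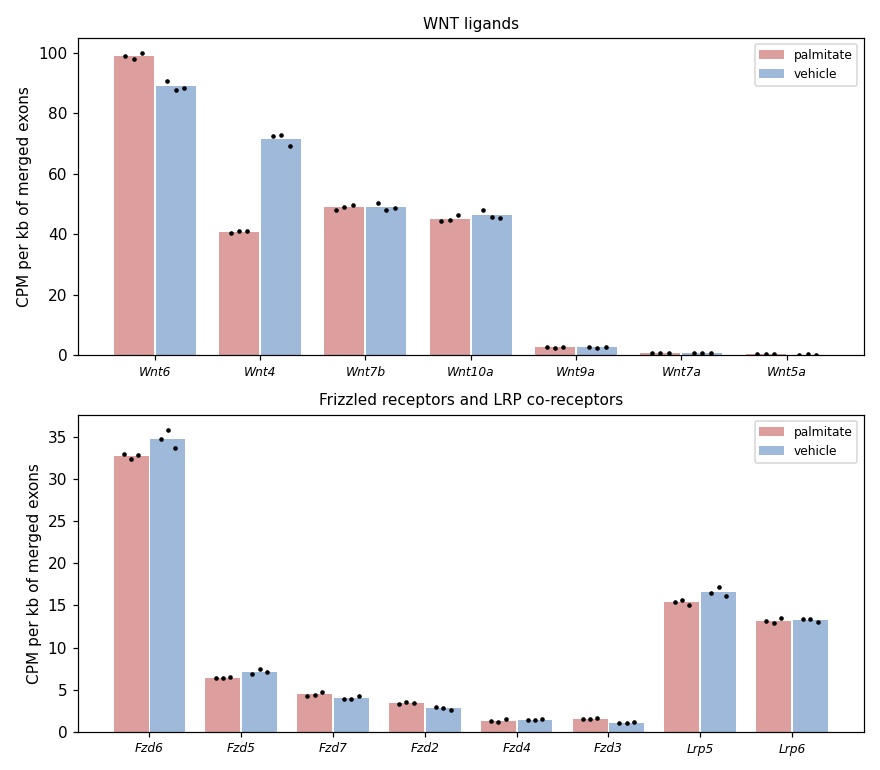
Level in CPM per kilobase of merged exons (y axis) of the tested ligands (upper panel) and of the Frizzled and LRP receptors (lower panel), with bars for the mean of 3 libraries, points for the libraries, palmitate in red and vehicle in blue. Wnt4 is the ligand whose bars lie furthest apart, 40.8 with palmitate and 71.5 with vehicle, and Fzd6 leads the receptors.

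Among the receptors, 8 of 9 genes were tested, 3 higher and 3 lower, beside 27.4% and 25.4% of all tested genes. Fzd3, a Frizzled receptor used in axon guidance and planar cell polarity, rose most. It had 20.0, 19.8 and 20.3 CPM with palmitate and 13.2, 13.8 and 14.6 CPM with vehicle (log2 fold change 0.53, SE 0.0623, adjusted p = 6.11e-12), and the groups did not overlap. Fzd2 also rose, with 12.04, 13.0 and 12.6 CPM with palmitate against 10.95, 10.6 and 9.32 CPM with vehicle (log2 fold change 0.29, SE 0.0765, adjusted p = 8.63e-04). Fzd7, a receptor of intestinal stem cells, had 20.3 ± 1.19 CPM with palmitate and 18.2 ± 0.805 CPM with vehicle (SD, n = 3 each) and was called (log2 fold change 0.16, adjusted p = 0.0189). That call was lost without palmitate replicate 3 (log2 fold change 0.11, adjusted p = 0.147), without vehicle replicate 1 (0.15, 0.0571) and without vehicle replicate 2 (0.13, 0.105), and with DESeq2 (adjusted p = 0.145).

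Fzd5, Fzd6 and Lrp5 fell by small amounts. Fzd5, the receptor that sustains crypt Paneth cells in the mouse, had 43.9, 44.5 and 44.7 CPM with palmitate and 47.5, 51.2 and 49.4 CPM with vehicle (log2 fold change -0.16, SE 0.0391, adjusted p = 4.29e-04). Fzd6 had 158 ± 1.42 CPM with palmitate and 168 ± 5.11 CPM with vehicle (SD, n = 3 each; log2 fold change -0.09, adjusted p = 7.19e-04). The co-receptor gene Lrp5 had 150.4, 152 and 147 CPM with palmitate and 161, 167 and 157 CPM with vehicle (log2 fold change -0.11, SE 0.0236, adjusted p = 4.20e-05). The groups of these genes did not overlap, yet each differed by less than 1.2-fold. Lrp6, the other co-receptor, had 180.1, 177 and 184 CPM with palmitate and 183, 183 and 178 CPM with vehicle, overlapping and not called (log2 fold change -0.01, adjusted p = 0.799). Fzd4 had 8.69 ± 1.2 CPM with palmitate and 9.46 ± 0.497 CPM with vehicle (SD, n = 3 each) and was not called (log2 fold change -0.12, adjusted p = 0.247). Without palmitate replicate 3 it was called lower (log2 fold change -0.24, adjusted p = 0.0357). Fzd9 was not tested, at 0.399 CPM with palmitate and 0.352 CPM with vehicle.

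Fzd6 alone made up 65.4% ± 0.776 of the summed Frizzled level per kilobase with palmitate and 67.7% ± 0.691 with vehicle (SD, n = 3 each), and Fzd3 3.13% ± 0.00514 and 2.11% ± 0.135. The sum over 7 Frizzled genes was 49.9, 49.6 and 50.8 CPM per kilobase with palmitate, against 51.2, 52.6 and 50.4 with vehicle. These sums overlap, while single receptors within them moved in both directions.

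All 4 genes of the R-spondin axis rose, by similar small amounts, where 27.4% of all tested genes were called higher. LGR4 and LGR5 are receptors for R-spondins, and RNF43 and ZNRF3 are ubiquitin ligases that remove Frizzled receptors from the membrane unless R-spondin binds. Rnf43, the most abundant of these, had 386, 406 and 390.1 CPM with palmitate and 353, 347 and 362 CPM with vehicle (log2 fold change 0.15, SE 0.0187, adjusted p = 3.04e-11). The stem cell marker Lgr5 had 167, 170.0 and 168 CPM with palmitate and 153, 148 and 144 CPM with vehicle (log2 fold change 0.19, SE 0.0233, adjusted p = 5.90e-11). Both genes were without overlap between the groups. Znrf3 had 68.8, 69.0 and 66.5 CPM with palmitate against 57.5, 59.6 and 60.2 CPM with vehicle (log2 fold change 0.20, SE 0.0341, adjusted p = 3.42e-07). Lgr4 had 53.1, 54.0 and 51.2 CPM with palmitate against 48.7, 44.6 and 44.5 CPM with vehicle (log2 fold change 0.20, SE 0.0390, adjusted p = 6.62e-06), and these groups were also apart. None of the 4 was called against the 1.2-fold minimum, and each kept its call under the other alternatives run.

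Among secreted and membrane inhibitors 5 of 6 genes were tested, 3 higher and 2 lower, beside 27.4% and 25.4% of all tested genes. Dkk2, which binds LRP5 and LRP6 and can block their use, rose 2.04-fold. It had 37.8, 36.1 and 33.2 CPM with palmitate and 16.9, 17.6 and 18.1 CPM with vehicle (log2 fold change 1.03, SE 0.0533, adjusted p = 1.93e-30). Notum, an enzyme that strips the acyl chain from WNT ligands, had 14.0, 13.7 and 14.4 CPM with palmitate against 7.74, 7.60 and 7.94 CPM with vehicle (log2 fold change 0.86, SE 0.0783, adjusted p = 1.69e-16). In both genes all palmitate libraries lay above all vehicle libraries. Notum shares exon bases with an antisense gene, Notumos, which held 6 counts over all libraries. Apcdd1, a membrane inhibitor of WNT reception, fell, with 71.5, 70.5 and 71.3 CPM with palmitate and 119.9, 124 and 126 CPM with vehicle (log2 fold change -0.80, SE 0.0287, adjusted p = 2.83e-41). The secreted Frizzled-related gene Sfrp5, which can bind WNT ligands, was scarce and fell. It passed the count filter only through vehicle. In Sfrp5 the counts were 11, 9 and 13 with palmitate and 29, 43 and 41 with vehicle, or 0.492, 0.399 and 0.572 CPM against 1.53, 1.96 and 1.89 CPM (log2 fold change -1.87, SE 0.258, adjusted p = 1.38e-09), so that the fold of this gene rests on few counts.

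Sfrp4 was scarcer still, with counts of 14, 15 and 12 with palmitate and 9, 4 and 6 with vehicle, and was called higher (log2 fold change 0.99, adjusted p = 0.0219). Its call was lost with DESeq2 (adjusted p = 0.181) and without palmitate replicate 1 (adjusted p = 0.0530) or 2 (0.0706) or vehicle replicate 2 (0.157) or 3 (0.0733). Without these libraries the log2 fold change was 0.97, 0.92, 0.71 and 0.92. Dkk3 had 5, 5 and 5 counts with palmitate and 2, 3 and 1 counts with vehicle and was not tested.

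**Figure D3:**
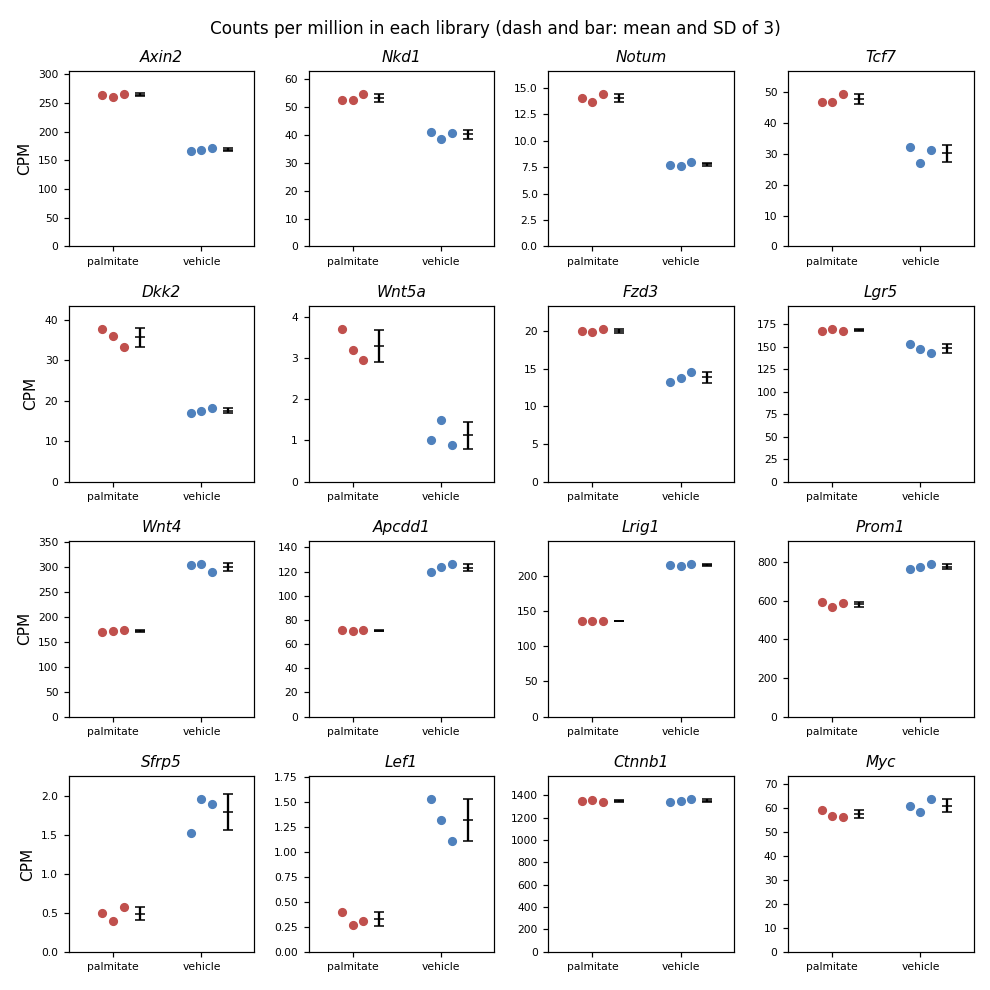
CPM (y axis, from 0) in each palmitate library (red) and vehicle library (blue) for 16 members, with the mean and SD of 3 libraries beside the points. Groups do not overlap in 14 panels, and the Ctnnb1 and Myc panels show overlapping groups.

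In the cytoplasm, 5 of 8 tested genes were higher and 1 lower, beside 27.4% and 25.4% of all tested genes. Axin2, a scaffold of the destruction complex and a commonly used readout of WNT signalling, had 265, 261 and 266 CPM with palmitate and 166, 167 and 172 CPM with vehicle (log2 fold change 0.65, SE 0.0208, adjusted p = 7.87e-45). Nkd1, which binds Dishevelled and dampens the signal, had 52.6, 52.6 and 54.9 CPM with palmitate and 41.2, 38.5 and 40.9 CPM with vehicle (log2 fold change 0.41, SE 0.0395, adjusted p = 1.85e-15). The groups of each gene were clearly apart. Axin1, the constitutive scaffold, rose less, to 119 ± 1.96 CPM with palmitate, against 105 ± 1.82 CPM with vehicle (SD, n = 3 each; log2 fold change 0.17, adjusted p = 2.62e-08). Dvl2 had 60.9 ± 0.495 CPM with palmitate and 53.4 ± 0.701 CPM with vehicle (SD, n = 3 each; log2 fold change 0.19, adjusted p = 3.86e-06), but it shares 1151 exon bases with Acadvl on the opposite strand, so this value is uncertain. Dvl3 had 79.8 ± 3.40 CPM with palmitate and 79.6 ± 2.35 CPM with vehicle (SD, n = 3 each) and was not called (adjusted p = 0.916).

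Beta-catenin message was the most abundant of all members by CPM. Ctnnb1 had 1351, 1359.9 and 1336 CPM with palmitate and 1341, 1347 and 1366 CPM with vehicle (log2 fold change -0.0026, SE 0.0146, adjusted p = 0.896). The groups overlapped and the difference was under 1% of the level. Apc had 163, 161 and 163 CPM with palmitate and 157, 151 and 159 CPM with vehicle (log2 fold change 0.06, SE 0.0230, adjusted p = 0.0252), a small difference at the edge of the threshold in groups that did not overlap. A processed pseudogene of Apc has its own row and may share reads with it. The call of Apc was lost with DESeq2 (adjusted p = 0.129), without palmitate replicate 3 (log2 fold change 0.06, adjusted p = 0.0591) and without vehicle replicate 2 (0.04, 0.251). Dvl1, called lower with 90.5 ± 0.857 CPM with palmitate and 95.2 ± 1.49 CPM with vehicle (SD, n = 3 each; log2 fold change -0.07, adjusted p = 0.0272), lost its call with DESeq2 (adjusted p = 0.180), with no count filter (0.0827), without palmitate replicate 2 (0.0875) or 3 (0.0790) and without vehicle replicate 1 (0.0503) or 2 (0.114).

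The nuclear factors parted. Tcf7, which encodes TCF1, a factor that can activate WNT targets with beta-catenin and is itself a known target in the intestine, rose, with 46.8, 46.7 and 49.4 CPM with palmitate and 32.3, 27.0 and 31.1 CPM with vehicle (log2 fold change 0.67, SE 0.0457, adjusted p = 7.13e-22). Tcf7l2, which encodes TCF4, the main factor of the intestinal epithelium, had 55.5, 56.9 and 58.5 CPM with palmitate and 58.1, 57.7 and 59.0 CPM with vehicle and was not called (log2 fold change -0.03, adjusted p = 0.460). Only the first of these pairs of groups was free of overlap. Lef1, named after its values were seen, had 9, 6 and 7 counts with palmitate and 29, 29 and 24 counts with vehicle, or 0.403, 0.266 and 0.308 CPM against 1.53, 1.32 and 1.11 CPM, and fell (log2 fold change -1.99, SE 0.305, adjusted p = 3.24e-08). Lef1 passed the count filter only through vehicle. Tcf7l1, mostly a repressor, had 1.57, 1.82 and 1.32 CPM with palmitate and 1.05, 0.864 and 1.11 CPM with vehicle (log2 fold change 0.64, SE 0.226, adjusted p = 0.0136). These low genes did not overlap between groups, but the call of Tcf7l1 was lost with DESeq2 (adjusted p = 0.127), without palmitate replicate 2 (log2 fold change 0.52, adjusted p = 0.0842) and without vehicle replicate 2 (0.53, 0.0770).

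Per kilobase, Tcf7 stood above Tcf7l2 in both groups, at 18.2 against 6.49 CPM per kilobase with palmitate and 11.5 against 6.64 with vehicle. By CPM the order was the reverse in every library. The order per kilobase thus rests on the merged exon length, 2625 bases for Tcf7 and 8775 for Tcf7l2. Merged exons join all annotated transcripts of a gene, so this order and the shares that follow are uncertain. Tcf7 made up 72.4% ± 0.479 of the summed level of these 4 genes with palmitate and 61.9% ± 1.95 with vehicle (SD, n = 3 each), and Tcf7l2 25.9% ± 0.246 and 35.9% ± 2.01. The sum was 24.6, 24.8 and 25.9 CPM per kilobase with palmitate, against 19.4, 17.2 and 19.0 with vehicle. The higher sum with palmitate went with the higher Tcf7 and not with Tcf7l2, whose groups overlapped.

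**Figure D4:**
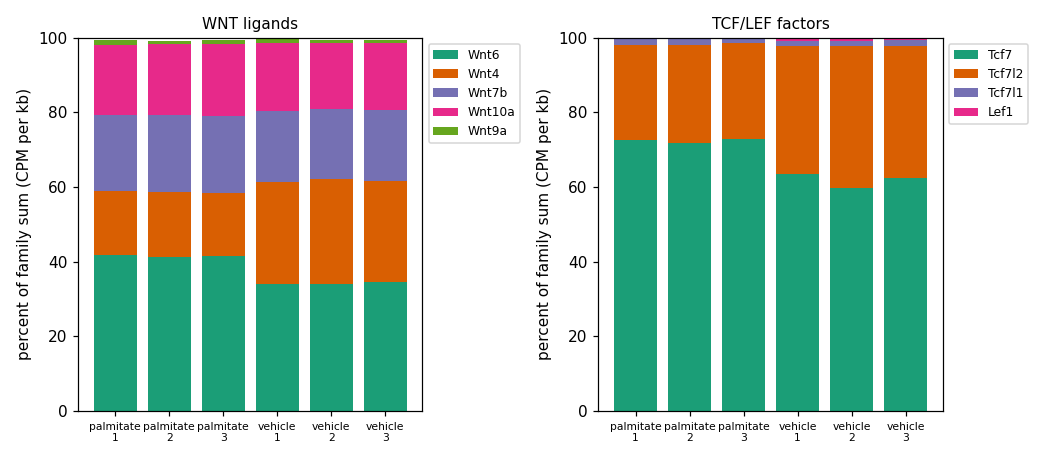
Share (y axis, percent) of each gene in the summed level per kilobase of the 16 ligands (left; the 5 most abundant drawn) and of the TCF and LEF factors (right), for each palmitate and vehicle library. Wnt4 takes 17.2% with palmitate and 27.6% with vehicle, and Tcf7 takes 72.4% and 61.9%. The shares depend on the merged exon length of each gene.

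Stem cell and target genes were lower or not called, with 4 of 5 tested genes lower and 0 higher. Over all tested genes, 25.4% were called lower and 27.4% higher. Lgr5 and Axin2 above, which are counted under other roles, were higher. Lrig1, a membrane brake on ERBB receptors that marks intestinal stem cells, had 136, 135 and 136 CPM with palmitate and 215, 214 and 217 CPM with vehicle (log2 fold change -0.66, SE 0.0219, adjusted p = 3.93e-44). Prom1, which encodes the membrane protein CD133, had 592, 568 and 588 CPM with palmitate and 766, 773 and 791 CPM with vehicle (log2 fold change -0.41, SE 0.0165, adjusted p = 1.14e-37). In both genes every palmitate library lay below every vehicle library. In an earlier annotation Prom1, Lrig1 and Sox4 share exon bases with genes on the opposite strand, as do Axin2, Ctnnb1, Dvl1, Fzd5, Fzd6, Lef1, Tcf7l1 and Wnt5a, and their reads may not be told apart either. Sox4, a transcription factor of progenitor cells, had 245, 236 and 233 CPM with palmitate and 266, 268 and 267 CPM with vehicle (log2 fold change -0.17, SE 0.0199, adjusted p = 1.21e-11), a smaller fall without overlap. Myc, a growth regulator and WNT target, had 59.1, 56.4 and 56.1 CPM with palmitate and 60.7, 58.2 and 63.6 CPM with vehicle, and its groups overlapped although it was called lower (log2 fold change -0.09, SE 0.0361, adjusted p = 0.0310). The call of Myc was lost with DESeq2 (adjusted p = 0.201), with no count filter (0.0701), without palmitate replicate 2 (0.113) or 3 (0.138) and without vehicle replicate 1 (0.0571) or 3 (0.258). Cdca7, a gene of replicating cells, had 46.7 ± 1.26 CPM with palmitate and 45.1 ± 1.58 CPM with vehicle (SD, n = 3 each) and was not called (adjusted p = 0.288). Sox9, a crypt factor, was close to 0, with counts of 0, 1 and 0 with palmitate and 2, 1 and 2 with vehicle, and was not tested.

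Beyond the members, 68 of 87 listed symbols of other pathway genes had a row and 60 were tested. The list held Tnfrsf19 also under the name Troy, and none of its R-spondin genes had a row. Of the 60 tested, 23 were called higher, 18 lower and 19 not called, beside 27.4% higher and 25.4% lower over all tested genes. The median log2 fold change of those tested was 0.0073, again close to that of all genes. Both genes of ligand secretion fell. Porcn, which attaches the acyl chain, had 7.83, 7.23 and 8.01 CPM with palmitate and 9.95, 9.28 and 10.99 CPM with vehicle (log2 fold change -0.39, SE 0.0870, adjusted p = 8.97e-05). The carrier gene Wls, named after its values were seen, had 514, 510.1 and 513 CPM with palmitate and 585, 579 and 569.6 CPM with vehicle (log2 fold change -0.17, SE 0.0165, adjusted p = 1.21e-15). The groups of neither gene overlapped. The tyrosine kinase co-receptors for WNT5A went in opposite directions at low levels. Ror2 rose, with 4.97, 4.93 and 4.89 CPM with palmitate and 1.74, 1.41 and 1.48 CPM with vehicle (log2 fold change 1.68, SE 0.155, adjusted p = 2.33e-16), and Ror1 fell, with 2.73, 2.97 and 2.64 CPM with palmitate and 5.32, 5.32 and 5.72 CPM with vehicle (log2 fold change -0.97, SE 0.130, adjusted p = 5.51e-10). Of 7 tested planar polarity genes 4 were higher and 1 lower, and Prickle1 rose most, with 73.4, 73.1 and 70.9 CPM with palmitate against 49.2, 49.1 and 48.2 CPM with vehicle (log2 fold change 0.57, SE 0.0349, adjusted p = 6.44e-26).

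In the destruction complex and its partners, 6 of 12 tested genes were higher and 1 lower, with a median log2 fold change of 0.04. Among nuclear co-factors 2 of 14 were higher and 6 lower. Of 19 tested further targets, 9 were higher and 7 lower. The shares over all tested genes, beside which these counts stand, were 27.4% higher and 25.4% lower. Tnfrsf19, a stem cell gene also called Troy, fell, with 16.6, 17.0 and 18.5 CPM with palmitate and 30.8, 32.5 and 32.8 CPM with vehicle (log2 fold change -0.89, SE 0.0535, adjusted p = 2.85e-26). Cdx2 had 2.6, 2.04 and 2.73 CPM with palmitate and 1.63, 1.5 and 2.03 CPM with vehicle (log2 fold change 0.51, SE 0.182, adjusted p = 0.0141), and its call was lost with DESeq2 (adjusted p = 0.123) and without palmitate replicate 1 (0.0506) or 3 (0.0788) or vehicle replicate 2 (0.0871). Known targets thus moved in both directions here, as they did among the members.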

How the data were processed

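Raw counts per gene for 6 libraries were used as deposited. Per the submitters' processing notes, the authors worked on mouse build GRCm39, and the tools named are STAR 2.6.1, HTSeq, DESeq2 1.34.0 and FastQC 0.11.8. The library kit keeps strand, per the labels' protocols. Whether strand was used in counting is not stated in the sources used here. A second table deposited by the authors holds DESeq2 log2 fold changes, p-values and q-values with a ranking score, per its column description, and values from it are named as such.

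The main test was the two-sided quasi-likelihood test of edgeR 4.0.16 (glmQLFit, robust, and glmQLFTest; R 4.3.3) after TMM normalisation and filterByExpr (minimum count 10), with Benjamini-Hochberg adjustment over 14987 genes and a threshold of 0.05. SE is the log2 fold change divided by the root of F. The alternatives tried were DESeq2 1.42.0, scaling by median-of-ratios size factors, no filter, limma 3.58.1 (voom), glmTreat at 1.2-fold, the replicate number as a block, and leaving out each library. On simulated counts with known changes the test was checked first. Members, lists and the naming rule were chosen with earlier results of these data known: the 8 greatest rises and falls among called members of at least 1 CPM without overlap, the most abundant member of each role, a fixed panel, and 3 rises and 3 falls of the other pathway genes. Exon lengths came from an earlier Gencode annotation, matched by identifier for all 53 members. Any 2 libraries of a group differed by more than counting noise, with a chi-square of 1.20 to 1.38 per degree of freedom. The spread beyond counting noise was small, with a common coefficient of variation of 1.28%, and it may be technical. Figures used matplotlib 3.10.9.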

Additional observations from a re-analysis of the deposited data

How the results depend on the processing

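Of the 31 called members, 13 kept their call under every one of the 12 alternatives and 25 under all but glmTreat, and no called member changed direction. With glmTreat against 1.2-fold, members called higher were 7 and lower 6, all genes 968 higher and 1307 lower, and other pathway genes 4 higher and 5 lower. Leaving out 1 library gave 15 to 18 members higher and 10 to 12 lower, and DESeq2 gave 15 and 10. A fit with the replicate block gave 19 members higher and 12 lower, as without it. Deviations of same-numbered libraries correlated at -0.00448, 0.00846 and 0.00715, and palmitate replicate 1 correlated best with vehicle replicate 2 (0.0109). The labels do not say whether the numbers pair libraries. These correlations cannot decide it, because counting noise may make up much of the deviations. Median-of-ratios scaling moved the median gene by -0.00338 on the log2 scale. Scarce genes such as Lef1, Sfrp4 and Sfrp5 are limited by depth, since few counts lie behind their folds.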
